A study of Mus musculus with 24 samples.

Results

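H19, Cdkn1c, Dlk1, Meg3, Rian, Peg3, Mest, Grb10, Plagl1 and Ndn are 10 imprinted genes, chosen by name among the 53392 genes quantified. They were chosen with earlier results of these data known. Polyadenylated RNA of myogenic cells from mouse hindlimb muscle was sequenced in 24 bulk libraries, 3 in each of 8 groups. The mdx mice, which carry a premature stop codon in the dystrophin gene Dmd, were of genotype mdx.Pax7-nGFP, and the wild-type (WT) mice were Pax7-nGFP. All groups therefore carried the nuclear GFP reporter driven by Pax7, the transcription factor that marks muscle stem cells (MuSCs). From each genotype the study collected freshly isolated MuSCs of uninjured muscle (FiMuSCs), activated MuSCs 3 days after cardiotoxin injury (AMuSCs), cultured primary myoblasts, and myotubes after 2 days of differentiation. The study describes MuSCs of uninjured muscle as quiescent in WT but activated in mdx mice, so FiMuSCs of the genotypes are not in matched states. MuSCs were sorted as GFP and ITGA7 positive cells without CD31, CD45, SCA1 or CD11b, whereas myoblasts were enriched on magnetic beads with the same lineage markers. The background strains were C57BL/10ScSnJ for WT and C57BL/10ScSn-Dmd mdx/J for mdx mice, and the ages of the animals were not given in the sources used here. The triplicates were called biological, and whether a library came from a single animal or from a pool was not stated, so the p-values measure the spread between these libraries.

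An imprinted gene is expressed mainly from a single parental copy, according to methylation marks laid down in the germ line. Many such genes regulate growth, and several lie in clusters governed by a shared control region. H19 is a maternally expressed non-coding RNA beside the paternally expressed growth factor gene Igf2. Dlk1, Meg3, Rian and Mirg lie in the Dlk1-Dio3 cluster, in which Dlk1 is paternal and the non-coding RNAs are maternal. Several of these genes have been linked to growth control and to stem cell quiescence. The libraries did not separate the parental copies, so only the total level of each gene was measured.

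Positions are in GRCm38. On chromosome 7, H19 (ENSMUSG00000000031) was annotated as a lincRNA at 142575529 to 142578143 on the minus strand, and Cdkn1c (ENSMUSG00000037664), the cell cycle inhibitor p57, at 143458339 to 143461050 on the minus strand. The same chromosome holds Peg3 (ENSMUSG00000002265), a zinc finger protein, at 6703892 to 6730431 on the minus strand. It also holds Ndn (ENSMUSG00000033585), which encodes the growth suppressor necdin, at 62346569 to 62350262 on the plus strand. Chromosome 12 holds Dlk1 (ENSMUSG00000040856), a transmembrane Notch ligand-like protein, at 109452823 to 109463336. It is followed on the same plus strand by the non-coding RNAs Meg3 (ENSMUSG00000021268) at 109541001 to 109571726 and Rian (ENSMUSG00000097451) at 109603940 to 109661716. Mest (ENSMUSG00000051855), a hydrolase-like protein, lies on chromosome 6 at 30723547 to 30748465 on the plus strand. Grb10 (ENSMUSG00000020176), an adaptor that dampens insulin and IGF receptor signalling, lies on chromosome 11 at 11930508 to 12038683 on the minus strand. Plagl1 (ENSMUSG00000019817), the zinc finger factor Zac1, lies on chromosome 10 at 13060504 to 13131694 on the plus strand. Annotated genes on the opposite strand overlap H19, Cdkn1c, Meg3, Mest, Plagl1 and Ndn, and the strand setting of the quantification was not given in the sources used here, so reads in those stretches are uncertain.

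Start regions are shown because Dlk1, Meg3 and Rian fell together in the comparison of FiMuSCs and because the estimated split of Grb10 between transcripts with different starts differed between FiMuSCs and WT myotubes. RefSeq windows of GRCm38.p6, reaching 250 bases before and 50 bases after an annotated start, matched 8 of the 10 genes. H19 and Cdkn1c had no entry in that table. Capitals mark TGACGTCA, the cyclic AMP response element, and CANNTG, the E-box bound by myogenic factors, searched on both strands.
Dlk1, chr12:109452573-109452872, plus strand: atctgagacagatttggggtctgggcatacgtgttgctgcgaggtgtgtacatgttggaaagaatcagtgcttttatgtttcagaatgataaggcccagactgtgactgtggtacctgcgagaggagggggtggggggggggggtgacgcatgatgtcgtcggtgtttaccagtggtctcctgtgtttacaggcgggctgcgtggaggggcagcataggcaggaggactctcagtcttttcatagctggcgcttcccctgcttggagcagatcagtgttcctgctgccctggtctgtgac
Meg3, chr12:109540746-109541045, plus strand: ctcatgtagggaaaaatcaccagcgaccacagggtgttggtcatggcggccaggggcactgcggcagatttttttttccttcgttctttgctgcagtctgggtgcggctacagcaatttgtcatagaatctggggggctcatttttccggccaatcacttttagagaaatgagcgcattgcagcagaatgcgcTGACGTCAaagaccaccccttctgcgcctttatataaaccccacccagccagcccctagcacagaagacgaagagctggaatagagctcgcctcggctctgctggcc
Rian, chr12:109603695-109603994, plus strand: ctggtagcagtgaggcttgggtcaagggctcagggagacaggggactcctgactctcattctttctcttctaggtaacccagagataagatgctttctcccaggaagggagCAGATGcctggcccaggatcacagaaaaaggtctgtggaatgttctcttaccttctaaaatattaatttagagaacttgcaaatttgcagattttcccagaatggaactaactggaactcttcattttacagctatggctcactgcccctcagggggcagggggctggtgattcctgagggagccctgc
Grb10-201 start, chr11:12037371-12037670, minus strand: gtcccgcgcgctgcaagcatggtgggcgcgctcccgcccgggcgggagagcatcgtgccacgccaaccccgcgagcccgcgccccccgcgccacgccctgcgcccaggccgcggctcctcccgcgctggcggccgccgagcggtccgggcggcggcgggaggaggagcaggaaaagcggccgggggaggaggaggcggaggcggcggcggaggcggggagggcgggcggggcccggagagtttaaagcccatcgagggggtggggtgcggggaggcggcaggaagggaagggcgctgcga
Grb10-203 start, chr11:12027922-12028221, minus strand: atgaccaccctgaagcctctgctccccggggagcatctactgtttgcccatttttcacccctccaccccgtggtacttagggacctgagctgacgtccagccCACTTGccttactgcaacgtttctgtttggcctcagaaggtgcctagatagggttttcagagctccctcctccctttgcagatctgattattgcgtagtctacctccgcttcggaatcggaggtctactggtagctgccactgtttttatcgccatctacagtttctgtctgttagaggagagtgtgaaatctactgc
The Meg3 window held 1 TGACGTCA, as did the window of Peg3, whereas 1.79% of the 32851 windows in the table held this motif. An E-box was found in 72.3% of all windows and in 7 of the 12 windows of these genes, including Rian and the Grb10-203 start, and the motifs did not overlap each other. The Grb10-201 window had 45 CpG dinucleotides and 80.0% G or C, and the Grb10-203 window had 9 CpG and 52.3% G or C, against a median of 7 CpG and 52.7% over all windows. Rian had 0 CpG in its window. A motif match is a description of letters only.

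H19, Meg3, Rian and Mest also carry microRNA genes on their own strand, and 13 mature sequences of 7 of the 8 annotated microRNA genes were found in RefSeq. A selection is shown because each of the 4 host genes was called in comparisons described here, and the seed (bases 2 to 8) is in capitals.
In H19, miR-675-5p: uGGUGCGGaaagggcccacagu
In H19, miR-675-3p: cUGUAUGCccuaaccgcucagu
In Meg3, miR-770-5p: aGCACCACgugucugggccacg
In Meg3, miR-1906: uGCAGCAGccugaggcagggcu
In Rian, miR-370-3p: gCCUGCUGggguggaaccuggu
In Rian, miR-341-3p: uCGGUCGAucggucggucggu
In Mest, miR-335-5p: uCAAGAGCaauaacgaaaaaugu
In Mest, miR-335-3p: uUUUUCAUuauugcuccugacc
The 13 mature microRNAs had 13 different seeds. Libraries of polyadenylated RNA do not measure mature microRNAs, so the values below are those of the host transcripts.

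The libraries held 37280196 to 64429222 estimated reads, with a median of 47357463. Dmd, the mutated gene, was lower in mdx than in WT FiMuSCs (139 to 149.5 against 230.4 to 262 CPM, the read count scaled to library size) and myotubes (38.1 to 47.1 against 205 to 230.1 CPM). Its ranges overlapped in AMuSCs and in myoblasts. Pax7 ranged from 1398 to 1971 CPM in FiMuSCs. In AMuSCs it was 751 to 855 CPM in mdx against 331 to 371 CPM in WT, and it was called higher in mdx AMuSCs. The 8 macrophage and leukocyte markers summed to 381, 631 and 1166 CPM in mdx FiMuSCs, against 89.0, 299 and 60.8 CPM in WT FiMuSCs. In AMuSCs they summed to 4084, 141 and 279 CPM in mdx and to 8.70, 8.32 and 25.5 CPM in WT, and none of them was at 0 in any sorted library. The 8 markers of fibro-adipogenic progenitors, the mesenchymal cells of muscle, summed to 1419 to 1582 CPM in mdx FiMuSCs against 739 to 849 CPM in WT, and to 2994 to 4956 CPM in mdx AMuSCs against 645 to 805 CPM in WT. Col1a2 was the largest part of the summed rise, at 814 to 996 CPM in mdx against 72.3 to 155 CPM in WT FiMuSCs. In AMuSCs it was at 2679 to 4419 CPM in mdx against 612 to 773 CPM in WT. Pdgfra and Ly6a of the same list were also called higher in mdx FiMuSCs. Dpt and Cd55 were lower there, with Dpt at 352 to 392 CPM in mdx against 475 to 611 CPM in WT. In AMuSCs Dpt went the other way, and Dpt, Col1a1, Ly6a and Pdgfra were called higher in mdx. Col1a1 was at 262 to 505 CPM in mdx against 15.3 to 18.4 CPM in WT AMuSCs. mdx AMuSC replicate 1 stood apart by its leukocyte RNA, with Lyz2 at 2492 CPM. Among the myoblasts, mdx replicate 2 stood apart, with Calcr, a marker of quiescent MuSCs, at 20.8 CPM against 0.103 and 1.09 CPM in the other mdx libraries, and with Lyz2 at 101 CPM. WT replicate 2 stood apart by the 6 myogenic differentiation markers. They summed to 351, 2259 and 377 CPM in WT and to 187, 771 and 199 CPM in mdx myoblasts. In AMuSCs they summed to 308, 881 and 293 CPM in WT and to 128, 480 and 364 CPM in mdx. H19 was also highest in WT replicate 2 in both states (3506 and 872 CPM), whereas replicate 3 led the mdx myoblasts (2794 CPM). The part of differentiation RNA in this was not tested. In bulk RNA, fewer cells of a type and less RNA per cell cannot be told apart.

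**Figure D1:**
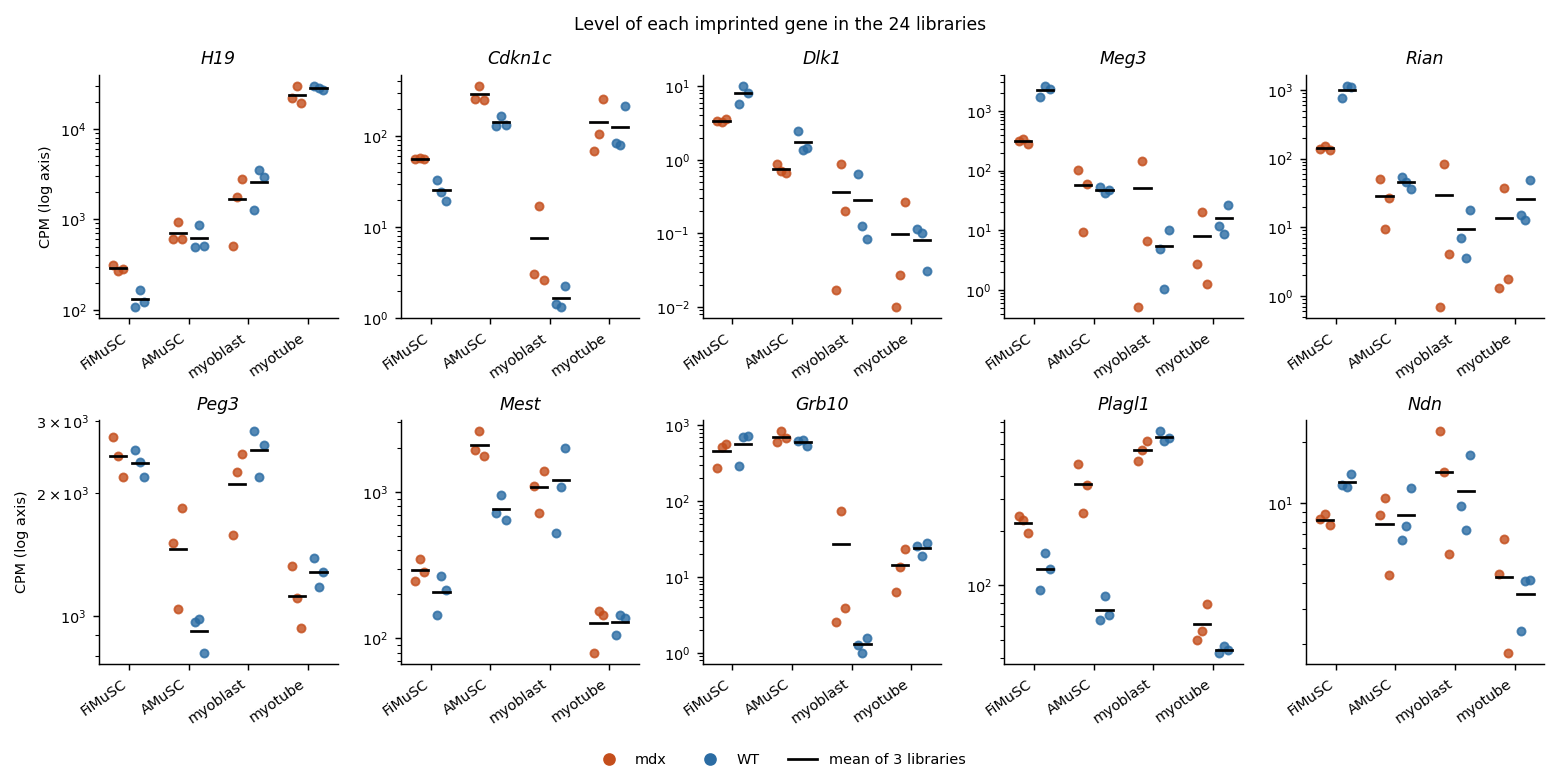
CPM of each gene (log axis) in every library, with mdx left of WT in each state and a bar at the mean of 3 libraries. Meg3 lay between 281 and 338 CPM in mdx FiMuSCs and between 1698 and 2651 CPM in WT FiMuSCs, and H19 was at 19518 CPM or more in all myotube libraries. A Dlk1 value of 0 in an mdx myotube library is drawn at the bottom of its panel.

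In uninjured muscle, the maternal non-coding RNAs Meg3 and Rian were lower in mdx than in WT FiMuSCs, by 7.14-fold and 7.07-fold, while H19 and Cdkn1c were more than 2-fold higher. Plagl1 was also higher, and Dlk1 and Ndn were lower. Of the 10 genes, 7 passed an adjusted p of 0.05 (edgeR quasi-likelihood test, Benjamini-Hochberg over all genes), 3 higher and 4 lower, where 9.67% of all genes tested passed (5.82% higher, 3.85% lower). Because the genes were chosen with earlier results of these data known, this count is no test of imprinted genes as a set. The median log2 fold change was -0.13 for the 10 genes and -0.0019 over all genes.

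Meg3 had 309.9, 338 and 281 CPM in mdx FiMuSCs, against 1698, 2651 and 2304 CPM in WT FiMuSCs. Every mdx library lay far below every WT library, and the log2 fold change was -2.83 ± 0.19 (SE; edgeR adjusted p = 0.0011). Rian, which is the host of many small nucleolar RNAs, had 139, 154 and 133 CPM in mdx FiMuSCs, against 775, 1155 and 1097 CPM in WT FiMuSCs. The groups were again fully separated, and the change of -2.82 ± 0.18 (edgeR adjusted p = 0.00093) was nearly that of Meg3. Dlk1, at the other end of the cluster, had 3.37, 3.24 and 3.59 CPM in mdx FiMuSCs, against 5.74, 10.2 and 8.02 CPM in WT FiMuSCs. Its level was low in both genotypes and lower in all mdx libraries, with a log2 fold change of -1.23 ± 0.24 (edgeR adjusted p = 0.027).

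H19 had 317, 272 and 280.0 CPM in mdx FiMuSCs, against 107, 166 and 123 CPM in WT FiMuSCs. The lowest mdx library was above the highest WT library, and H19 was higher by 1.14 ± 0.17 on the log2 scale (edgeR adjusted p = 0.012). Cdkn1c, whose protein halts the cell cycle, had 55.6, 57.7 and 55.3 CPM in mdx FiMuSCs, against 32.5, 24.0 and 19.6 CPM in WT FiMuSCs. The mdx libraries were tightly grouped, and the log2 fold change was 1.16 ± 0.18 (edgeR adjusted p = 0.013). Plagl1, a transcription factor that acts on other imprinted genes, had 243, 229.8 and 194 CPM in mdx FiMuSCs, against 93.9, 152 and 123 CPM in WT FiMuSCs. It was higher by 0.86 ± 0.19 on the log2 scale (edgeR adjusted p = 0.038) with no overlap between genotypes. Ndn averaged 8.27 ± 0.519 CPM in mdx and 12.7 ± 1.02 CPM in WT FiMuSCs (SD, n = 3 each) and was lower by a log2 fold change of -0.62 ± 0.13 (edgeR adjusted p = 0.036).

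Peg3, Mest and Grb10 did not pass the test in FiMuSCs, and their libraries overlapped between genotypes. Peg3 averaged 2469 ± 276 CPM in mdx and 2371 ± 180 CPM in WT FiMuSCs (SD, n = 3 each). Mest averaged 294 ± 52.1 CPM in mdx and 209 ± 61.3 CPM in WT FiMuSCs, and Grb10 averaged 457 ± 161 CPM in mdx and 575 ± 247 CPM in WT FiMuSCs. Libraries of the genotypes did not overlap for 7 of the 10 genes, where 31.8% of all genes tested did not overlap. Macrophage markers (5 of 8) and fibro-adipogenic markers (3 of 8) were also called higher in mdx FiMuSCs, with 2 of the 8 fibro-adipogenic markers lower. Of the myogenic differentiation markers 2 of 6, Ckm and Myog, were called higher, with sums of 116 to 165 CPM in mdx against 53.9 to 86.2 CPM in WT FiMuSCs. Of the 8 MuSC markers Vcam1 was called higher and Chrdl2 and Myf5 lower. The endothelial markers summed to 545 CPM in mdx FiMuSC replicate 1, against 136 to 199 CPM in the other FiMuSC libraries. The part of these markers in the results was not tested.

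The calls on Meg3 and Rian held when any FiMuSC library was left out, whereas Dlk1, Plagl1, Ndn, H19 and Cdkn1c each lost significance without at least 1 library, and leaving out 1 library left 3 to 6 calls. Without mdx FiMuSC replicate 2 and without WT FiMuSC replicate 3 the count was 3, and without mdx FiMuSC replicate 3 or WT FiMuSC replicate 2 it was 4. In the same order these fits called 511 of 20270, 600 of 20257, 698 of 19866 and 735 of 19935 of all genes. With every FiMuSC library kept it was 1876 of 19406. When all 24 libraries were fitted together, with their spread shared, only Plagl1 passed, and Meg3 and Rian had edgeR adjusted p of 0.24 and 0.23. That fit called 1550 of 22319 of all genes.

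**Figure D2:**
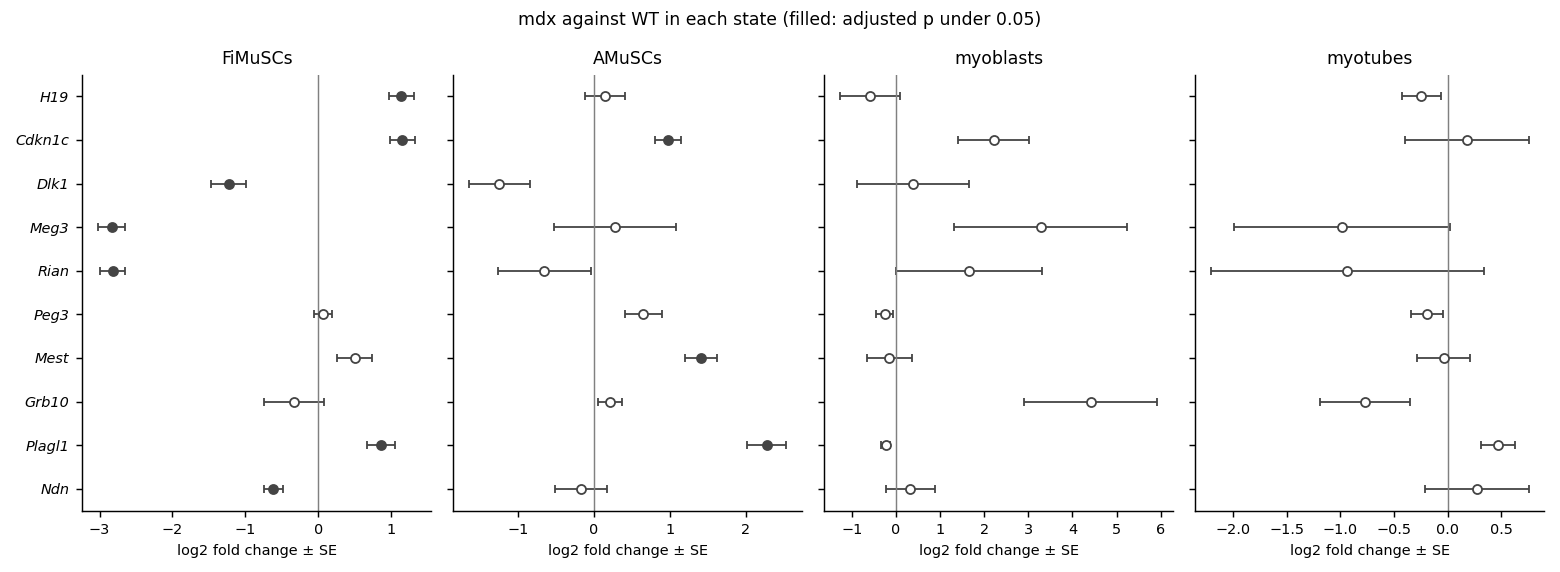
Log2 fold change (mdx over WT) of each gene in each state with its standard error, 3 libraries against 3; filled points passed an adjusted p of 0.05, and each panel has its own scale. Meg3 and Rian lay near -2.8 in FiMuSCs, and Plagl1 was highest in AMuSCs at 2.27; Dlk1 was not tested in myotubes.

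After injury, Plagl1, Mest and Cdkn1c were higher in mdx than in WT AMuSCs, and edgeR called none of the 10 genes lower. The called genes numbered 3 of 10, where 23.7% of all genes passed (14.8% higher, 8.95% lower), so the share was near that of the whole table. Plagl1 had 469, 252 and 359 CPM in mdx AMuSCs, against 64.6, 87.5 and 68.8 CPM in WT AMuSCs. The groups were separated by more than 2-fold at their nearest libraries, and the log2 fold change was 2.27 ± 0.26 (edgeR adjusted p = 0.0021). Mest, which is abundant in growing embryonic tissue, had 1932, 2604 and 1761 CPM in mdx AMuSCs, against 715, 955 and 643 CPM in WT AMuSCs. It was higher by 1.41 ± 0.21 on the log2 scale (edgeR adjusted p = 0.0047). Cdkn1c had 253, 358 and 249 CPM in mdx AMuSCs, against 129, 165 and 133 CPM in WT AMuSCs, a log2 fold change of 0.98 ± 0.17 (edgeR adjusted p = 0.0077). The call on Cdkn1c ended without WT AMuSC replicate 1 or replicate 3 (adjusted p = 0.052 in each case) and in the fit of all 24 libraries (0.21).

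Meg3 was not called between the genotypes after injury, with 103, 9.47 and 60.0 CPM in mdx AMuSCs, against 52.7, 42.5 and 47.1 CPM in WT AMuSCs. The mdx libraries spread over more than 10-fold, with replicate 1 highest and replicate 2 lowest, which was also the order of their leukocyte marker sums. The part of leukocyte RNA in that spread was not tested. Rian had 51.3, 9.49 and 26.2 CPM in mdx AMuSCs, against 53.4, 46.4 and 36.1 CPM in WT AMuSCs, with the same library lowest. Its log2 fold change was -0.65 ± 0.62, and that of Meg3 was 0.28 ± 0.80.

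Dlk1 had 0.877, 0.710 and 0.665 CPM in mdx AMuSCs, against 2.45, 1.35 and 1.45 CPM in WT AMuSCs, a log2 fold change of -1.25 ± 0.40 that missed the threshold (edgeR adjusted p = 0.058). Its libraries did not overlap between the genotypes, and DESeq2 called it lower in mdx (-1.30, DESeq2 adjusted p = 0.018). H19 averaged 709 ± 185 CPM in mdx and 624 ± 215 CPM in WT AMuSCs (SD, n = 3 each), with overlapping libraries. Peg3 averaged 1463 ± 402 CPM in mdx and 922 ± 94.6 CPM in WT AMuSCs, with an edgeR adjusted p of 0.086, and Grb10 and Ndn overlapped between genotypes. Libraries did not overlap for 5 of the 10 genes, as for 45.5% of all genes. Fibro-adipogenic and leukocyte markers (5 of 8 each), MuSC markers (5 of 8, with Chrdl2 lower) and pericyte markers (3 of 6) were called higher in mdx AMuSCs, and proliferation markers (6 of 6) were called lower. The MuSC markers summed to 2472 to 2907 CPM in mdx against 1819 to 1852 CPM in WT AMuSCs, and the pericyte markers to 282 to 525 CPM in mdx against 106 to 143 CPM in WT. The part of these markers in the 3 calls was not tested. Left without mdx AMuSC replicate 1, the library with the highest leukocyte sum, the count remained 3. Of all genes that fit called 3946 of 20040, against 4582 of 19321 with every AMuSC library kept.

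Injury changed these genes in opposite directions within each genotype: H19, Cdkn1c and Mest rose while Dlk1, Rian and, in WT mice, Meg3 fell. In mdx mice 5 of the 10 genes were called between AMuSCs and FiMuSCs, 3 higher and 2 lower, where 27.3% of all genes passed (15.5% higher, 11.7% lower). In WT mice 8 were called, 3 higher and 5 lower, where 64.6% of all genes passed (31.6% higher, 33.0% lower). The AMuSC and FiMuSC libraries did not overlap for 9 of the 10 genes in mdx mice (48.6% of all genes) and for 9 in WT mice (71.9% of all genes). Cdkn1c rose by 2.35 ± 0.19 on the log2 scale in mdx (edgeR adjusted p = 0.00027) and by 2.58 ± 0.20 in WT mice (2.2e-05). Mest rose by 2.83 ± 0.24 in mdx (edgeR adjusted p = 0.00035) and by 1.97 ± 0.26 in WT mice (0.00057). H19 rose by 1.29 ± 0.22 in mdx (edgeR adjusted p = 0.0054) and by 2.33 ± 0.29 in WT mice (0.00049). Markers moved as well. In AMuSCs 6 of 6 endothelial markers were called lower in both genotypes. Schwann cell markers were lower for 4 of 5 in mdx and 5 of 5 in WT mice. Of 8 fibro-adipogenic markers 5 were lower and 2 higher in mdx, and 6 lower and 1 higher in WT mice. Leukocyte markers were lower for 0 of 8 in mdx and 6 of 8 in WT mice. Of 8 MuSC markers 7 were lower and 1 higher in both genotypes, and 6 of 6 proliferation markers were higher. Their part was not tested.

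Meg3 averaged 57.6 ± 47.0 CPM in mdx AMuSCs and 309.6 ± 28.7 CPM in mdx FiMuSCs (SD, n = 3 each). All 3 mdx AMuSC libraries were below all 3 mdx FiMuSC libraries, yet the change of -2.44 ± 0.79 missed the threshold (edgeR adjusted p = 0.069). It passed without mdx AMuSC replicate 2 (-1.94, adjusted p = 0.0079) and without mdx AMuSC replicate 1 (-3.14, 0.021). In WT mice Meg3 averaged 47.4 ± 5.12 CPM in AMuSCs and 2218 ± 482 CPM in FiMuSCs. This log2 fold change of -5.46 ± 0.20 (edgeR adjusted p = 5.6e-07) was the greatest of the 10 genes with injury. Rian had log2 fold changes of -2.31 ± 0.57 in mdx (edgeR adjusted p = 0.031) and -4.39 ± 0.22 in WT mice (2.9e-06). The mdx call on Rian ended without mdx AMuSC replicate 3 and without any 1 of the mdx FiMuSC libraries, with changes of -2.32 to -2.21. Dlk1 was lower in both genotypes, by -2.18 ± 0.33 in mdx (edgeR adjusted p = 0.0035) and -2.10 ± 0.32 in WT mice (0.00050).

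Plagl1 was the gene for which the genotypes moved apart. It had 469, 252 and 359 CPM in mdx AMuSCs against 243, 229.8 and 194 CPM in mdx FiMuSCs, with no overlap and a log2 fold change of 0.69 ± 0.23 that missed the threshold (edgeR adjusted p = 0.063). In WT mice all AMuSC libraries were below all FiMuSC libraries (64.6, 87.5 and 68.8 against 93.9, 152 and 123 CPM), a log2 fold change of -0.65 ± 0.19 (edgeR adjusted p = 0.020). This call ended without WT AMuSC replicate 1, WT AMuSC replicate 3 or WT FiMuSC replicate 3 (adjusted p = 0.074, 0.076 and 0.061). Peg3 had a change of -0.76 in mdx mice that was not called (edgeR adjusted p = 0.055), and in WT mice it fell to 922 ± 94.6 CPM in AMuSCs against 2371 ± 180 CPM in FiMuSCs (-1.27 ± 0.11; 1.8e-05). Grb10 and Ndn were called in neither genotype, with Grb10 at 599, 835 and 687 CPM in mdx AMuSCs.

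The difference between the injury changes (mdx minus WT) was tested as an interaction over the 12 sorted libraries. Plagl1 and Meg3 were called, both with a positive difference, that is 2 of 10 genes where 15.1% of all genes passed (8.14% higher, 6.98% lower). For Plagl1 the difference was 1.31 ± 0.32 on the log2 scale (edgeR adjusted p = 0.019), and for Meg3 it was 3.00 ± 0.83 (0.036). Meg3 fell less in mdx mice, from a lower mean FiMuSC level (309.6 CPM against 2218 CPM in WT). Its AMuSC libraries overlapped between the genotypes. Rian had a difference of 2.06 ± 0.63 and H19 one of -1.06 ± 0.35, and neither passed (edgeR adjusted p = 0.051 and 0.061). The Meg3 call ended in 10 of the 12 fits that left out a library, with adjusted p between 0.053 and 0.090, and also without a filter (0.10) and with all 24 libraries (0.26). The Plagl1 call ended without mdx FiMuSC replicate 3, WT AMuSC replicate 1, WT AMuSC replicate 3 or WT FiMuSC replicate 2 (0.052 to 0.058). Across the fits that left out a library the number called ran from 0 to 5, and it was 5 without mdx AMuSC replicate 2. Of all genes those fits called 1793 of 22111 to 4878 of 21918, the latter also without mdx AMuSC replicate 2.

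**Figure D3:**
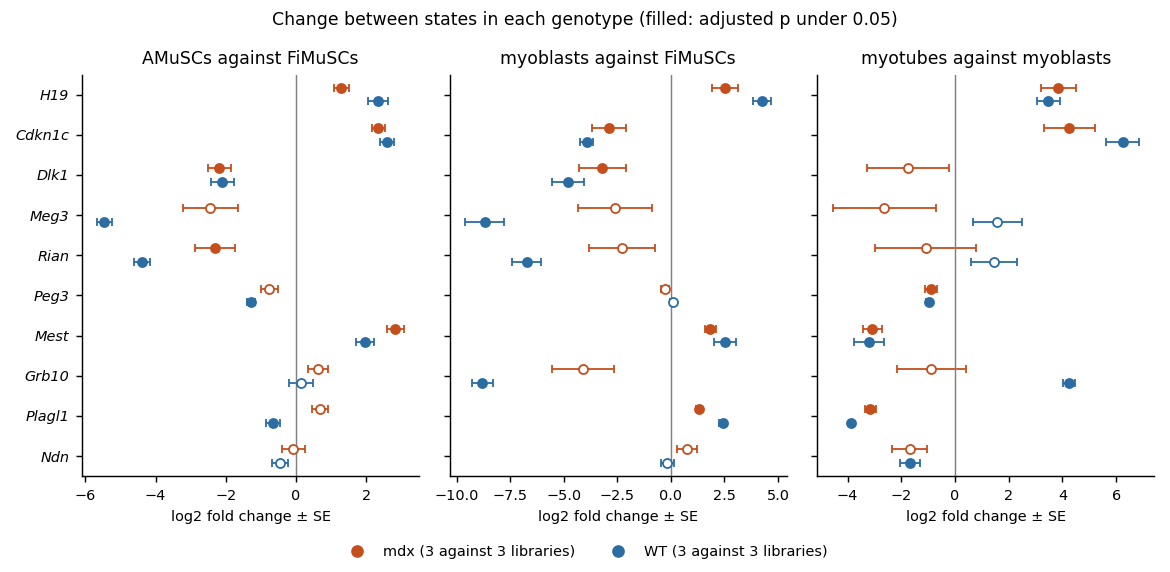
Log2 fold change of each gene between states with its standard error, mdx above WT (3 libraries against 3); filled points passed an adjusted p of 0.05. For AMuSCs against FiMuSCs, Meg3 was at -2.44 in mdx and -5.46 in WT mice, and H19 lay above 0 in all 3 comparisons in both genotypes.

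Cultured myoblasts differed from FiMuSCs by culture, by RNA extraction kit and by state, which cannot be told apart. H19, Mest and Plagl1 were higher in myoblasts than in FiMuSCs of both genotypes, and Cdkn1c and Dlk1 were lower. In mdx mice 5 genes were called, 3 higher and 2 lower, where 60.4% of all genes passed (30.5% higher, 29.9% lower). In WT mice 8 were called, 3 higher and 5 lower, where 74.3% passed (35.1% higher, 39.2% lower), so both shares were near those of the whole table. Libraries did not overlap for 8 of the 10 genes in either genotype, as for 73.6% of all genes in mdx and 80.5% in WT mice. H19 had 509, 1753 and 2794 CPM in mdx myoblasts (log2 fold change 2.52 ± 0.60 against mdx FiMuSCs) and 1275, 3506 and 2911 CPM in WT myoblasts (4.27 ± 0.43 against WT FiMuSCs). Plagl1 reached its highest levels here, at 555 ± 71.0 CPM in mdx and 659 ± 42.9 CPM in WT myoblasts (SD, n = 3 each).

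Grb10 had 2.56, 74.9 and 3.87 CPM in mdx myoblasts, against 273, 527 and 572 CPM in mdx FiMuSCs. The high myoblast value was that of replicate 2, the library with Calcr and Lyz2 RNA. In WT myoblasts Grb10 was nearly silent, with 1.28, 1.00 and 1.60 CPM against 289, 707 and 728 CPM in WT FiMuSCs, a log2 fold change of -8.80 ± 0.51 (edgeR adjusted p = 1.7e-05). Meg3 in mdx replicate 2 was 147 CPM against 0.516 and 6.70 CPM in the other mdx myoblast libraries, and Rian was 84.1 CPM against 0.688 and 4.04 CPM. The Grb10, Meg3 and Rian changes were not called in mdx mice, and without that library they were called at -7.17, -6.47 and -5.96 (edgeR adjusted p = 0.00029, 0.0051 and 0.0020). The number of genes called in mdx mice was then 8, and it was 2 without any 1 of the mdx FiMuSC libraries. Of all genes 11806 of 19917 were called without mdx myoblast replicate 2, against 11567 of 19143 with every library kept. The fits without an mdx FiMuSC library called 10339 of 19951, 8682 of 20004 and 9273 of 19657.

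Between the genotypes, edgeR called 0 of the 10 genes in myoblasts, where it called 0.36% of all genes (0.244% higher, 0.116% lower). Without adjustment 2 had p under 0.05, Cdkn1c (2.21 ± 0.81) and Grb10 (4.41 ± 1.52), and DESeq2 called 1, Cdkn1c. Cdkn1c had 3.04, 17.2 and 2.60 CPM in mdx and 1.42, 1.32 and 2.26 CPM in WT myoblasts, so that the groups did not overlap although the highest value was again that of mdx replicate 2. Libraries did not overlap for 2 of the 10 genes, as for 20.9% of all genes. The Meg3 difference of 3.28 ± 1.96 turned to -0.58 without mdx myoblast replicate 2, and that of Grb10 became 1.31.

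Myotubes had by far the most H19. In mdx myotubes H19 had 22187, 30009 and 19518 CPM, and in WT myotubes 30058, 28070 and 26655 CPM. It rose against myoblasts by 3.85 ± 0.64 on the log2 scale in mdx (edgeR adjusted p = 0.0032) and by 3.47 ± 0.43 in WT cells (0.0011). Cdkn1c, whose protein accompanies cell cycle exit, rose as well, to 67.9, 105 and 258 CPM in mdx myotubes and 84.1, 80.2 and 212 CPM in WT myotubes. Its log2 fold changes were 4.25 ± 0.95 in mdx (edgeR adjusted p = 0.010) and 6.24 ± 0.61 in WT cells (0.00047).

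Plagl1, Mest and Peg3 fell with differentiation in both genotypes. Plagl1 averaged 61.7 ± 15.4 CPM in mdx and 44.3 ± 2.07 CPM in WT myotubes (SD, n = 3 each), with log2 fold changes of -3.15 ± 0.20 in mdx and -3.88 ± 0.08 in WT cells. Mest averaged 126 ± 40.9 CPM in mdx and 129 ± 20.6 CPM in WT myotubes, changes of -3.07 ± 0.35 and -3.21 ± 0.56. Peg3 had log2 fold changes of -0.88 ± 0.22 in mdx (edgeR adjusted p = 0.015) and -0.98 ± 0.10 in WT cells (6.4e-05). Ndn fell in WT cells by 1.67 on the log2 scale and had a change of -1.69 ± 0.65 in mdx cells that was not called (edgeR adjusted p = 0.069). In mdx cells 5 of 10 genes were called, 2 higher and 3 lower, where 52.2% of all genes passed (25.8% higher, 26.5% lower). In WT cells 7 of the 9 tested were called, 3 higher and 4 lower, where 69.5% passed (34.9% higher, 34.5% lower). Libraries did not overlap for 5 genes in mdx cells (63.5% of all genes) and 7 in WT cells (75.8% of all genes).

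Between the genotypes, 0 of the 9 genes tested in myotubes were called by edgeR (0.591% of all genes; 0.373% higher, 0.218% lower) and 0 by DESeq2, while 1 had p under 0.05 before adjustment. That gene was Plagl1, with 49.9, 56.1 and 79.2 CPM in mdx and 42.5, 46.6 and 43.9 CPM in WT myotubes, a log2 fold change of 0.47 ± 0.16. It was the only gene of the 10 whose libraries did not overlap, where 21.1% of all genes did not overlap. Dlk1 was too low to be tested in myotubes, at 0, 0.0273 and 0.270 CPM in mdx and 0.115, 0.101 and 0.0313 CPM in WT. The differentiation changes of mdx and WT cells were called different for 0 of the 10 genes by edgeR (0.0592% of all genes; 0.0269% higher, 0.0323% lower). Before adjustment 2 had p under 0.05, Plagl1 (0.76 ± 0.21) and Grb10 (-5.10 ± 1.54), and DESeq2 called Grb10.

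Grb10 had 6.39, 13.5 and 23.2 CPM in mdx myotubes, and the change of -0.89 ± 1.28 against mdx myoblasts was not called and became 2.17 without mdx myoblast replicate 2. In WT myotubes it rose to 25.6, 19.2 and 28.1 CPM, against 1.28, 1.00 and 1.60 CPM in WT myoblasts, a log2 fold change of 4.24 ± 0.22 (edgeR adjusted p = 1.7e-06). The estimated split of Grb10 between its transcripts was set beside the gene level. Grb10-203 took 68.5%, 83.6% and 34.2% of the Grb10 level in TPM, which also scales to transcript length, in mdx myotubes and 95.9%, 91.0% and 91.0% in WT myotubes. In FiMuSCs its share was 10.5%, 11.1% and 4.68% in mdx and 15.0%, 13.8% and 9.50% in WT. Grb10-201, from the CpG-rich window printed above, took 62.7%, 51.2% and 57.0% in mdx and 56.2%, 50.6% and 55.0% in WT FiMuSCs, but only 29.2%, 16.0% and 63.1% in mdx and 3.96%, 9.04% and 8.79% in WT myotubes. The Grb10-201 share of mdx myotube replicate 3 was thus above that of every FiMuSC library. In mdx myoblast replicate 2, with 4155 estimated Grb10 reads, Grb10-201 took 61.3% and Grb10-203 took 18.9%. The other 5 myoblast libraries had 56 to 153 reads, too few for shares to be read. The myotube libraries had 218, 496 and 1203 reads in mdx and 890, 568 and 896 in WT, so the shares of mdx replicate 1 also rest on few reads. In TPM, Grb10-203 was itself lower in WT myotubes (1.83 to 2.56) than in WT FiMuSCs (9.37 to 23.7). The estimated split between transcripts carries no test.

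**Figure D4:**
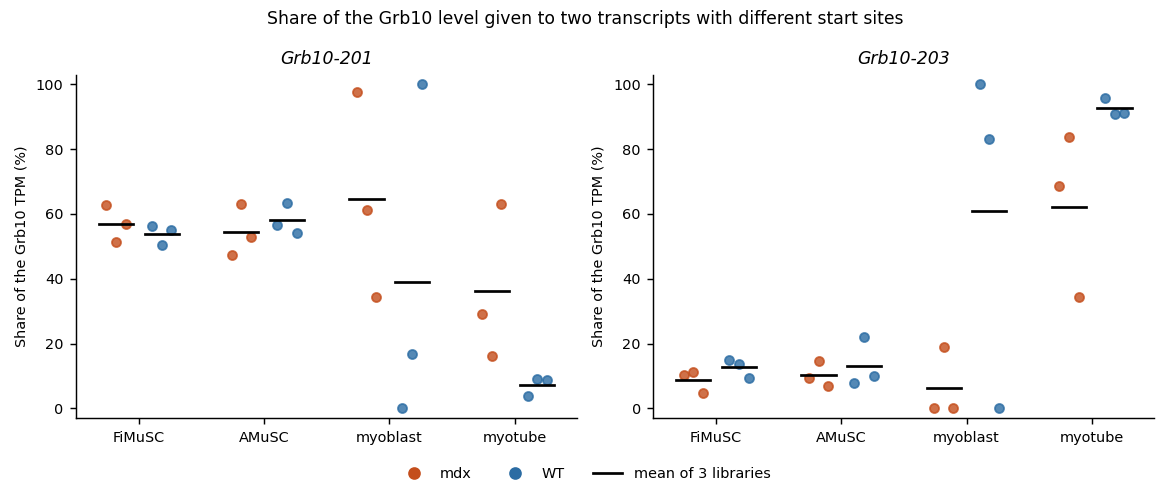
Share of the Grb10 TPM (percent) given to Grb10-201 and Grb10-203 in every library, mdx left of WT, with bars at the mean of 3 libraries. Grb10-203 took 91.0% or more in WT myotubes and at most 15.0% in FiMuSCs of either genotype. Shares in myoblasts rest on 56 to 153 reads except in mdx replicate 2, which had 4155, and shares in myotubes rest on 218 to 1203 reads.

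Neighbours in a cluster were set side by side. Igf2 was 793, 633 and 642 CPM in mdx FiMuSCs, against 164, 139.8 and 128 CPM in WT FiMuSCs, a log2 fold change of 2.27 ± 0.14 (edgeR adjusted p = 0.00093) that exceeded that of H19. The ratio of H19 to Igf2 CPM was 0.399 to 0.435 in mdx and 0.652 to 1.19 in WT FiMuSCs. It was 1.74 to 2.68 in mdx and 7.34 to 10.3 in WT AMuSCs, so the libraries of the genotypes were separated in both states. In myoblasts the ratio was 9.71 to 14.6 in mdx and 8.07 to 15.5 in WT, and in myotubes 4.83 to 6.91 in mdx and 5.04 to 6.21 in WT, with overlap in each. Igf2 was higher in myotubes than in myoblasts by 4.94 ± 0.70 in mdx (edgeR adjusted p = 0.0016) and by 4.42 ± 0.65 in WT cells (0.0025). Injury lowered Igf2 in mdx mice (-1.18 ± 0.21; edgeR adjusted p = 0.0069), in contrast to the rise of H19, and its change in WT mice (-0.83 ± 0.34) was not called.

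Within the Dlk1-Dio3 cluster Rian kept a narrow range relative to Meg3 in FiMuSCs. It was 45.0% to 47.3% of Meg3 CPM in mdx and 43.6% to 47.6% in WT FiMuSCs, although both RNAs were about 7-fold lower in mdx. In AMuSCs the proportion was 43.7% to 100.2% in mdx and 76.8% to 109% in WT, and in WT myoblasts Rian exceeded Meg3 (145% to 356%). Mirg, a further non-coding RNA of the cluster, had 4.61, 5.93 and 8.13 CPM in mdx FiMuSCs, against 27.3, 48.9 and 41.3 CPM in WT FiMuSCs. Its log2 fold change of -2.65 ± 0.29 (edgeR adjusted p = 0.0051) was close to those of Meg3 and Rian, but its proportion to Meg3 was less even, at 1.49%, 1.76% and 2.90% in mdx and 1.61% to 1.84% in WT FiMuSCs. Over the 24 libraries, Pearson's r of log2 CPM was 0.976 between Meg3 and Rian and 0.842 between Dlk1 and Meg3, and -0.839 between H19 and Dlk1. These are descriptions over libraries that share states, with no test.

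**Figure D5:**
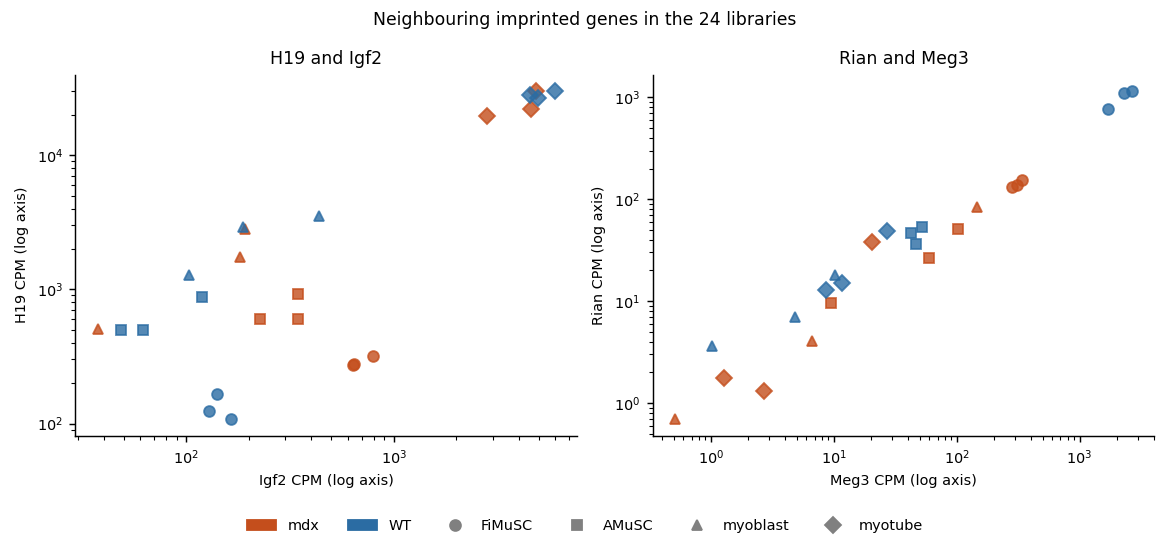
H19 against Igf2 and Rian against Meg3 in CPM (log axes), a point per library, with colour for genotype and shape for state. FiMuSCs of the genotypes separate on both axes in both panels, and Rian follows Meg3 over all states with an r of 0.976.

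Per length, H19 was the most abundant of the 10 transcripts in myotubes, with 14429 ± 2727 TPM in mdx and 16356 ± 1244 TPM in WT (SD, n = 3 each). In mdx FiMuSCs H19 (299 ± 25.1 TPM), Peg3 (277 ± 34.3 TPM) and Meg3 (243 ± 23.4 TPM) lay close together, while in WT FiMuSCs the first places went to Meg3 (1817 ± 449 TPM) and Rian (1242 ± 274 TPM). In mdx AMuSCs Mest led with 930.4 ± 4.25 TPM, followed by H19 with 610.2 ± 77.9 TPM. Dlk1 and Ndn stayed under 10 TPM in the mean of every group.

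The order of the 8 groups differed from gene to gene. H19 descended from WT and mdx myotubes through myoblasts and AMuSCs to mdx FiMuSCs and then WT FiMuSCs, and only the steps below the myotubes, below the AMuSCs and between the FiMuSC groups were free of overlap. Its highest group mean was 214 times its lowest. Meg3 was highest in WT FiMuSCs, with mdx FiMuSCs next and neither overlapping another group. Then came mdx AMuSCs, mdx myoblasts and WT AMuSCs, which overlapped in turn, and WT myoblasts were last, with a range of 413 times. For Cdkn1c, mdx AMuSCs, mdx myotubes, WT AMuSCs and WT myotubes overlapped in turn, and each step below them was free of overlap. Plagl1 was highest in the myoblasts of both genotypes and lowest in WT myotubes, a range of 14.9 times. Mest was highest in mdx AMuSCs, whose libraries overlapped those of WT myoblasts. Peg3 and Ndn varied least, by 2.76 and 3.99 times, and Grb10 varied most, by 547 times.

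The mean share of H19-204 hardly moved between the 8 groups, whereas the shares of Meg3, Plagl1 and Peg3 are given for FiMuSCs only. H19-204 took 36.4% of the H19 TPM in mdx FiMuSCs in the mean of 3 libraries, and its mean share lay between 34.7% and 36.4% in all groups although the gene level changed 214-fold. Meg3-205 led Meg3 in FiMuSCs with 26.1% in mdx and 23.5% in WT, and the leading Plagl1 transcript took 42.4% in mdx and 41.9% in WT. Peg3-201 took 73.5% in mdx and 78.3% in WT FiMuSCs.

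For each gene the 3 genes whose log2 CPM followed it most closely over the 24 libraries were found among genes with a mean log2 CPM of at least 2. They were Usp13, Stam2 and Nrap for H19 (r of 0.982, 0.981 and 0.981). Rian, Svep1 and Abca8b followed Meg3 (0.976, 0.929 and 0.916), and Meg3, Svep1 and Abca8b followed Rian (0.976, 0.89 and 0.862). Cav1, Nup210 and Ncald followed Grb10 (0.978, 0.977 and 0.963), and Rapgefl1, Pde2a and Igfbp6 followed Cdkn1c (0.938, 0.936 and 0.925). The closest were Tst for Dlk1 (0.938), Arhgef12 for Peg3 (0.928), Cenpl for Mest (0.942) and Tgfb1i1 for Plagl1 (0.95). Ndn was matched least well, with Syde1 at 0.799.

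Of 45 further genes listed as imprinted, 39 were tested between mdx and WT FiMuSCs, with 2 called higher (Igf2 and Ppp1r9a) and 5 lower, where 9.67% of all genes passed. Whether each of them is imprinted in these cells was not measured. The organic cation transporter gene Slc22a3 averaged 0.345 ± 0.0510 CPM in mdx and 41.8 ± 33.8 CPM in WT FiMuSCs (SD, n = 3 each), a log2 fold change of -6.91 ± 0.76 (edgeR adjusted p = 0.0052). The amino acid transporter gene Slc38a4 averaged 7.35 ± 2.21 CPM in mdx and 26.1 ± 5.27 CPM in WT FiMuSCs, a log2 fold change of -1.82 ± 0.26 (edgeR adjusted p = 0.011). Mirg, Nap1l5 and Trappc9 were the other 3 called lower. The median log2 fold change of the 39 was -0.03.

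Between mdx and WT AMuSCs, 9 of 37 were called higher and 1, Asb4, lower, where 23.7% of all genes passed (14.8% higher, 8.95% lower), so the total was near the share of the whole table. Sgce, which encodes a sarcoglycan of the membrane complex that also holds dystrophin, averaged 33.1 ± 5.24 CPM in mdx and 14.6 ± 0.355 CPM in WT AMuSCs, a log2 fold change of 1.16 (edgeR adjusted p = 0.0022). Igf2r, the receptor that clears IGF2, averaged 481 ± 30.6 CPM in mdx and 260.3 ± 41.0 CPM in WT AMuSCs (0.86; edgeR adjusted p = 0.0092). Igf2 was higher by 1.97 ± 0.36 (edgeR adjusted p = 0.012), and Asb4 had a log2 fold change of -2.26. In the injury difference 8 of 40 were called where 15.1% of all genes passed, all 8 higher, with Slc38a4 first (1.98 ± 0.32, edgeR adjusted p = 0.0033) and Mirg among them (1.90 ± 0.44, 0.016). Slc38a4 and Mirg were both called lower in mdx FiMuSCs, and in AMuSCs their libraries overlapped between the genotypes.

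Injury itself changed 17 of 40 in mdx mice (6 higher, 11 lower) and 26 of 37 in WT mice (9 higher, 17 lower), where 27.3% of all genes passed in mdx and 64.6% in WT mice. The WT count was near the share of the whole table. Nap1l5, Peg13 and Dcn had log2 fold changes of -4.94, -2.29 and -3.08 in mdx mice, and Slc38a4 rose by 2.36. In WT mice Mirg, Gnas, Sgce and Zim1 fell, with log2 fold changes of -4.99, -1.91, -1.46 and -2.43. Dcn, a matrix proteoglycan gene, is also expressed by fibro-adipogenic progenitors.

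In culture, 0 of 35 in myoblasts and 0 of 34 in myotubes were called between the genotypes by edgeR, and by DESeq2, while 4 and 2 had p under 0.05 before adjustment. Of all genes edgeR called only 0.36% in myoblasts and 0.591% in myotubes, so these counts were near the share of the whole table. Against FiMuSCs, 23 of 38 were called in mdx myoblasts (8 higher, 15 lower) and 30 of 36 in WT myoblasts (13 higher, 17 lower), where 60.4% of all genes passed in mdx and 74.3% in WT. Among them Blcap had log2 fold changes of 2.12 in mdx, where Ppp1r9a, Peg13 and Sgce had -2.83, -1.69 and -1.30. In WT myoblasts Mirg, Zim1, Kcnq1ot1 and Nap1l5 had -7.18, -1.98, -1.96 and -8.39. Against myoblasts, 17 of 33 were called in mdx myotubes (10 higher, 7 lower) and 23 of 33 in WT myotubes (15 higher, 8 lower), where 52.2% of all genes passed in mdx and 69.5% in WT. Ddc rose by 4.30 and Igf2r by 1.12 in mdx myotubes, where Inpp5f and Blcap had -1.89 and -1.41. In WT myotubes Trappc9 rose by 1.13, and Peg12, Blcap and Inpp5f had -3.81, -1.46 and -2.29. For the difference of the differentiation changes edgeR called 0 of 34 and DESeq2 called 1, Ube3a, while 2 had p under 0.05 before adjustment. Of all genes edgeR called 0.0592% there.

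The 6 genes that maintain imprints (Zfp57 and Zfp445, which recognise imprinted control regions, their partner Trim28, the methylation maintenance pair Dnmt1 and Uhrf1, and Ctcf, which binds the H19 and Igf2 control region) were not called between mdx and WT FiMuSCs by edgeR. DESeq2 called 1, Dnmt1, and 2 had p under 0.05 before adjustment. Of all genes edgeR called 9.67% there. Between mdx and WT AMuSCs 5 were lower, with log2 fold changes of -1.14 for Zfp57, -0.62 for Trim28, -0.76 for Dnmt1, -1.09 for Uhrf1 and -0.45 for Ctcf. Of all genes 8.95% were called lower there, and 23.7% in either direction. The 6 genes summed to 786 to 997 CPM in mdx and 1317 to 1489 CPM in WT AMuSCs. Proliferation markers were also lower in mdx AMuSCs (6 of 6 called), with sums of 947 to 1280 CPM in mdx and 1688 to 1764 CPM in WT, and their part in this was not tested.

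With injury 4 of the 6 rose in mdx mice (Zfp57 by 1.54, Trim28 by 0.90, Dnmt1 by 1.57 and Uhrf1 by 2.82) and 5 in WT mice (by 2.73, 1.40, 2.79 and 4.30 in the same order, and Ctcf by 0.54), where Zfp445 had a change of -0.58. Of all genes 15.5% were called higher with injury in mdx and 31.6% in WT mice. The rise of Dnmt1 and Uhrf1 was smaller in mdx mice by the interaction test, with differences of -1.25 and -1.50, where 6.98% of all genes were called lower. In myoblasts against FiMuSCs 4 were higher and Zfp445 lower in both genotypes, where 60.4% of all genes passed in mdx and 74.3% in WT. All 6 were lower in myotubes than in myoblasts, with Uhrf1 at -4.18 in mdx and -5.30 in WT cells and Dnmt1 at -2.18 in mdx and -2.56 in WT cells. Of all genes 26.5% were called lower in mdx and 34.5% in WT myotubes. Between the genotypes edgeR and DESeq2 called 0 of the 6 in myoblasts, where 2 had p under 0.05 before adjustment, and 0 in myotubes, where 0 did. Of all genes edgeR called 0.36% in myoblasts and 0.591% in myotubes, so these counts were near the share of the whole table.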

How the data were processed

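Per the labels, RNA was extracted with the Arcturus Picopure kit from sorted cells and with the Nucleospin RNA II kit from cultured cells, and libraries were made with the NEBNext Ultra II Directional kit after polyA selection. Tools and build in the submitters' processing notes were Salmon (version 0.13.1), GRCm38 and DESeq2. The deposited files held the estimated counts and the TPM that the authors obtained per transcript in each library. Both were summed per gene here, and 53355 of 53392 genes matched GENCODE M21. Gene sums of estimated counts were rounded and tested with edgeR 4.0.16 (TMM, filterByExpr, robust quasi-likelihood test, two-sided) in R 4.3.3 with limma 3.58.1, using only the groups compared, and p-values were adjusted over all genes tested. Genes at an adjusted p under 0.05 were called. The test gives no standard error, so the SE shown is the absolute log2 fold change divided by the square root of the F statistic. CPM used TMM factors over all 24 libraries, log2 CPM a prior count of 2. DESeq2 1.42.0, no filter, a length offset, a fit of all 24 libraries, a replicate block and leaving out each library were alternatives. Scripts were tested on simulated data. With 3 libraries against 3, a two-sided exact permutation test cannot go below p = 0.1 and was not used.

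The text names all 10 genes, Igf2 and, of the 45 other imprinted genes, the 4 with the smallest p among those called in each comparison, called genes of the imprint maintenance list, and the 3 closest genes by Pearson's r. Other names were picked once values were known. The genes and lists were chosen with earlier results of these data known.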

Additional observations from a re-analysis of the deposited data

Results flagged for a closer look

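The change with injury differed between mdx and WT mice by the interaction test (edgeR quasi-likelihood) for Plagl1, with a difference (mdx minus WT) of 1.31 on the log2 scale, and for Meg3, with 3.00. The Meg3 call ended in 10 of 12 fits that left out a library, with the replicate block (adjusted p = 0.073), without a filter (0.10) and with all 24 libraries (0.26), and the Plagl1 call ended in 4 of the 12. Plagl1 moved in opposite directions, with log2 fold changes of 0.69 in mdx mice (not called) and -0.65 in WT mice (called, but not without any 1 of 3 WT libraries), and the AMuSC and FiMuSC libraries did not overlap in either genotype. Meg3 was lower after injury in both genotypes, by less in mdx mice (-2.44, not called) than in WT mice (-5.46). Among the other imprinted genes named, the same test gave differences of 1.98 for Slc38a4, 1.90 for Mirg, 0.97 for Trappc9, 0.95 for Igf2r and 0.93 for Sgce, and among the imprint maintenance genes -1.25 for Dnmt1 and -1.50 for Uhrf1. With all libraries kept, all of these were called at an adjusted p under 0.05, where 15.1% of all genes were.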

How the results depend on the processing

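Of 50 called results, 484 of 562 values under the alternatives kept their call, 78 lost it and 0 reversed. The calls were ended 0 times by DESeq2, 5 times without a filter, 8 with the replicate block, 3 with the length offset, 10 with all 24 libraries in one fit and 52 by leaving out a library. Of 845 values for 68 results not called, 41 became called and 54 reversed. The cause was not tested.

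Genes called between mdx and WT FiMuSCs numbered 4 with the replicate block and 1 in the fit of all 24 libraries, against 7. Over all genes the counts were 1148 of 19406 and 1550 of 22319, against 1876 of 19406. Between mdx and WT AMuSCs the number was 5 with DESeq2 (4 higher, and 1, Dlk1, lower), against 3. Over all genes DESeq2 called 5863 of 32143 there, against 4582 of 19321 with edgeR. Between mdx and WT myoblasts the number was 1 with DESeq2 and 1 in the fit of all 24 libraries, against 0. Over all genes the counts were 889 of 30068 and 432 of 22319, against 62 of 17226. For injury in mdx mice DESeq2 called 8, against 5, and 6289 of 33050 of all genes, against 5357 of 19650. For the injury difference DESeq2 called 4, and 1 was called without a filter and 1 in the fit of all 24 libraries, against 2. Over all genes the counts were 4604 of 35107, 2526 of 35447 and 3710 of 22319 in the same order, against 3189 of 21086. For myoblasts against FiMuSCs in mdx mice 3 were called without a filter, against 5, and for the differentiation difference DESeq2 called 1, against 0. Over all genes the former counts were 10720 of 33190, against 11567 of 19143, and the latter 287 of 32476, against 11 of 18585. Leaving out 1 library gave 3 to 6 calls between FiMuSCs, 0 to 5 for the injury difference and 2 to 8 for mdx myoblasts against FiMuSCs. Of all genes the FiMuSC fits called 511 of 20270 to 2503 of 19765. The injury difference had 1793 of 22111 to 4878 of 21918, and the myoblast fits 8682 of 20004 to 11806 of 19917.

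Replicate numbers were shared between groups, but correlations of same-numbered libraries lay between -0.16 and 0.36 and were not all over 0.1 in any comparison, so the samples were taken to share only a number. Between myotubes and myoblasts same-numbered libraries had r of 0.0577 to 0.36 in mdx (different numbers up to 0.17) and 0.0324 to 0.10 in WT cells, where different numbers reached at most 0.0027, a hint of pairing from the data. With the block 9 genes were called in WT myotubes against 7, with Meg3 (1.85; edgeR adjusted p = 0.018) and Rian (1.46; 0.00024) added, and 5 in mdx myotubes as without it, with Ndn gained (-1.66; 0.0087) and Peg3 lost (0.051). Of all genes the block gave 11472 calls in WT and 8832 in mdx myotubes, against 11742 and 8982 without it. With the replicate block, uncalled log2 values reversed for Meg3 between AMuSCs (-0.23), Rian between myoblasts (-0.95), Grb10 between mdx myotubes and myoblasts (0.65) and Mest in the differentiation difference (-0.0172). Others reversed were Dlk1 in the injury difference with all 24 libraries (0.0113), Peg3 in WT myoblasts against FiMuSCs with the length offset (-0.0078), and, in the differentiation difference, Dlk1 without a filter (-0.0116) and with the length offset (-0.42) and Ndn with DESeq2 (-0.0115), without a filter (-0.0236) and with all 24 libraries (-0.0343).

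Leaving out a library turned the sign of further uncalled log2 values. Between the genotypes the ranges were, for Peg3 in FiMuSCs, -0.0255 to 0.15. In AMuSCs they were -0.10 to 0.47 for H19, -0.45 to 0.74 for Meg3 and -0.44 to 0.11 for Ndn. In myoblasts they were -1.43 to 1.81 for Dlk1, -0.58 to 4.15 for Meg3, -2.03 to 2.50 for Rian, -0.52 to 0.43 for Mest and -0.19 to 0.75 for Ndn. In myotubes they were -0.54 to 0.79 for Cdkn1c, -0.20 to 0.20 for Mest and -0.17 to 0.65 for Ndn. With injury they were -0.35 to 0.21 for Ndn in mdx mice, -0.18 to 0.39 for Grb10 in WT mice and -0.31 to 0.21 for the Dlk1 difference. In culture they were -0.57 to 0.0833 for Ndn in WT myoblasts against FiMuSCs, and for mdx myotubes against myoblasts -4.68 to 1.17 for Meg3, -4.23 to 2.54 for Rian and -1.42 to 2.17 for Grb10. The differentiation difference ran from -0.0295 to 1.00 for H19, -2.65 to 1.78 for Dlk1, -5.63 to 1.13 for Rian, -0.0607 to 0.28 for Peg3, -0.40 to 0.52 for Mest and -0.44 to 0.52 for Ndn.

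The median log2 fold change of all genes tested for mdx myoblasts against FiMuSCs was -0.11 with edgeR and -0.46 with DESeq2, which tested more genes. Of 80 group levels, 79 moved by less than 1 SD relative to each other with DESeq2 size factors and 50 with TPM. With 3 libraries a group, low genes such as Dlk1 in cultured cells gave values of wide error.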
